A study of Mus musculus with 34 samples.

Results

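H3K27ac, the acetylation of lysine 27 on histone H3 that marks active promoters and enhancers, was compared between mouse Kupffer cells and blood Ly6C-high monocytes over all 84647 regions of the deposited table, of which 80982 carried enough tags to be tested. 4 of the 34 libraries of the series made up the comparison. Kupffer cells are the resident macrophages of the liver sinusoids. The Kupffer cell group had 2 libraries with no treatment, and the Ly6C-high monocyte group had 2 libraries, also with no treatment. The sample labels give C57BL/6J as the strain of both groups, whereas the series text describes the Kupffer cells as coming from Clec4f-Cre/DTR mice, in which the Clec4f promoter drives the recombinase, so the genotype of that group is not settled here. Another group in the table, 2 libraries of repopulating liver macrophages (RLM), came from Clec4f-cre/Rosa26iDTR mice 24 h after diphtheria toxin, which kills cells carrying the induced toxin receptor. It shared the fit and its estimate of spread and is given only beside the others. Transcription factor peaks of Kupffer cells and of cultured bone marrow-derived macrophages are laid over the regions further on. Those macrophages were at culture day 4 without treatment, or at day 7 after 18 h with the agonist GW3965. Every H3K27ac library came from formaldehyde-fixed cells with an Active Motif antibody. Age and sex are not given in the labels, nor is it said whether libraries of the same group are from different animals, so p-values here measure only the spread between libraries, which may be technical. Cell type, tissue of origin and, if the series text holds, genotype all differ between the groups together and cannot be told apart. A lower signal over many cells can also mean fewer acetylated cells or less acetylation per cell, which cannot be told apart in bulk libraries.

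Ly6C-high monocytes circulate for a short time, enter inflamed tissue and give rise to macrophages in many tissues. Kupffer cells face the portal blood, where they remove bacteria, lipoproteins, aged red cells and apoptotic cells. In mice they take their identity from signals of neighbouring liver cells: Notch ligands acting through RBPJ, TGF-beta and BMP ligands acting through SMAD4, and sterols acting through the liver X receptors (LXR), which pair with RXR. H3K27ac is laid down by the acetyltransferases p300 and CBP at regulatory DNA already opened by transcription factors.

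The promoters below carry the contrast and are shown for 5 genes with far more H3K27ac in Kupffer cells and 2 with far more in monocytes. They were read from RefSeq's table for GRCm38.p6 (mm10), 5′ to 3′ on the gene's strand, from 250 bases before to 50 bases after the start, in lower case. Capitals mark matches to the motifs listed further on: in Timd4 an interferon regulatory factor (IRF) motif at -70 and a MAF motif at -45, in Bmpr1a SP motifs at -147 and -37, and in Ly6c2 ETS/PU.1 motifs at -142 and -8, each position being that of the first base relative to the start. The C1qb, Clec4f, Spic and F10 windows hold none of these letters.

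C1qb (B chain of complement C1q), chr4:136886151-136886450, minus strand: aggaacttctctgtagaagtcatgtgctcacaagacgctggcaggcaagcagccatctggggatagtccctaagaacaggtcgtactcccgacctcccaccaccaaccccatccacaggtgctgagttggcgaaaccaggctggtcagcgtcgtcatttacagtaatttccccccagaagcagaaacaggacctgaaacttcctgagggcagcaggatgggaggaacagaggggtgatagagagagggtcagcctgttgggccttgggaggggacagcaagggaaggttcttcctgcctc

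Clec4f (galactose-binding lectin of mouse Kupffer cells), chr6:83656067-83656366, minus strand: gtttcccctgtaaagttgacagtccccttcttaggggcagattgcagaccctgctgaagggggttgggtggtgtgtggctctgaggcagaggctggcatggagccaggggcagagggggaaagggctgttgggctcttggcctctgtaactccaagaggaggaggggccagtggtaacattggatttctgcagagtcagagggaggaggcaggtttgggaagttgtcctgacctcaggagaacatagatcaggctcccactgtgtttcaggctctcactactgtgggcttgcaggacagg

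Spic (ETS-family transcription factor of iron-recycling macrophages), chr10:88682974-88683273, minus strand: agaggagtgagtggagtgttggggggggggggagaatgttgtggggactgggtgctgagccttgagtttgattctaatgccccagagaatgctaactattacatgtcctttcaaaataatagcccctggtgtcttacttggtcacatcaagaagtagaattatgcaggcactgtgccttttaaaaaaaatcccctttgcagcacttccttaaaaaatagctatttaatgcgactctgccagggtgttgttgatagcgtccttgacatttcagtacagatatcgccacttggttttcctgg

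Timd4 (phosphatidylserine receptor of resident macrophages), chr11:46810549-46810848, plus strand: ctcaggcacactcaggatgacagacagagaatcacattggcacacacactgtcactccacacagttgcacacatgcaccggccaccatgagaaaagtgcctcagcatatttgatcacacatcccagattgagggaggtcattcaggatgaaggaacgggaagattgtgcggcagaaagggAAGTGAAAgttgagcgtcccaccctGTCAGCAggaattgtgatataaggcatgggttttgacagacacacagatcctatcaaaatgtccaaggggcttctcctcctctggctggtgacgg

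Bmpr1a (type I BMP receptor), chr14:34502497-34502796, minus strand: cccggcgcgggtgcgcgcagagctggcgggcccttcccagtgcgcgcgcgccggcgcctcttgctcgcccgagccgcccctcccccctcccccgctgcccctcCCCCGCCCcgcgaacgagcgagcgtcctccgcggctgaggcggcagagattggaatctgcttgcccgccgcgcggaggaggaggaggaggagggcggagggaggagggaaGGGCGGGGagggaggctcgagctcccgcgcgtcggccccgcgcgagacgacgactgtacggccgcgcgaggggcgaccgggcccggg

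F10 (coagulation factor X), chr8:13037058-13037357, plus strand: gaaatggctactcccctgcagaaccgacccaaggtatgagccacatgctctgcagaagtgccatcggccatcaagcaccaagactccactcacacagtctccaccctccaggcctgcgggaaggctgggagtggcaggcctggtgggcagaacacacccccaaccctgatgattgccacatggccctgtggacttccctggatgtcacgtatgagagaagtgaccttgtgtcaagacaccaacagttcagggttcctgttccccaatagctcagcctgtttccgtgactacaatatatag

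Ly6c2 (surface antigen that defines these monocytes), chr15:75111888-75112187, minus strand: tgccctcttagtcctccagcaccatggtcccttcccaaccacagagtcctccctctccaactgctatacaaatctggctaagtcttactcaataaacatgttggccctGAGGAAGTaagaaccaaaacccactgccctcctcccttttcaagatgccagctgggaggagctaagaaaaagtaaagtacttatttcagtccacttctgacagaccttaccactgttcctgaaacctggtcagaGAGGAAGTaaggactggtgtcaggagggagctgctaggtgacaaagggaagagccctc

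The 2000 bp region over the C1qb promoter held 522 and 1282 tags in the Kupffer cell libraries, against 7 and 4 in the monocyte libraries. That over Clec4f held 199 and 426 tags in Kupffer cells and 6 and 7 in monocytes, and that over Spic 477 and 1221 in Kupffer cells and 20 and 7 in monocytes. At all 3 promoters the lower Kupffer cell count exceeded the higher monocyte count by more than 10-fold. The Timd4 region held 384 and 952 tags in Kupffer cells and 16 and 2 in monocytes, and the Bmpr1a region 235 and 370 in Kupffer cells and 5 and 0 in monocytes. Scaled for depth, these 5 regions differed by a log2 of 7.21 (C1qb), 5.48 (Clec4f), 5.84 (Spic), 6.08 (Timd4) and 6.83 (Bmpr1a), with edgeR adjusted p-values of at most 1.08e-19. The Bmpr1a window had the highest GC content of the 7, 79.3%. The other 2 promoters ran the opposite way. F10 had 1 and 0 tags in Kupffer cells against 552 and 519 in monocytes. Ly6c2 had 2 and 0 in Kupffer cells against 115 and 78 in monocytes, and since so few Kupffer cell tags fix no fold, the depth-scaled ratio of monocytes to Kupffer cells is given as 101 with an exact 95% counting interval of 27.7 to 843.

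Kupffer cells and monocytes differed at a large share of the acetylated regions. 20184 of the tested regions (24.9%) had more H3K27ac in Kupffer cells, and 14353 (17.7%) had less, at an edgeR adjusted p under 0.05 and at least a 2-fold difference, the rule for every call here. Merged where they overlapped, these were 12299 loci that were higher and 10210 that were lower. Many differences were large: 4-fold was passed by 11028 higher regions (54.6%) and 7368 lower regions (51.3%), and 2049 and 1066 passed 16-fold. Levels of regions are given in CPM, tags scaled to the library's tags in all tested regions after edgeR's trimmed mean scaling. The median level of the higher regions was 12.8 CPM in Kupffer cells and 1.98 CPM in monocytes. That of the lower regions was 0.924 CPM in Kupffer cells and 5.33 CPM in monocytes. RLM lay between them, at a median of 3.34 CPM in the higher regions and 2.74 CPM in the lower ones. Over all tested regions the medians were 4.50 CPM in Kupffer cells, 2.88 CPM in RLM and 2.89 CPM in monocytes. The called regions were chosen on Kupffer cells and monocytes, so RLM can lie between them from that choice alone. Within the calls, the libraries of the groups did not overlap in 20174 of the 20184 higher and 14296 of the 14353 lower regions. A call already asks for a difference that is large beside the spread, so these counts add no support. The share over all tested regions was not counted.

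**Figure D1:**
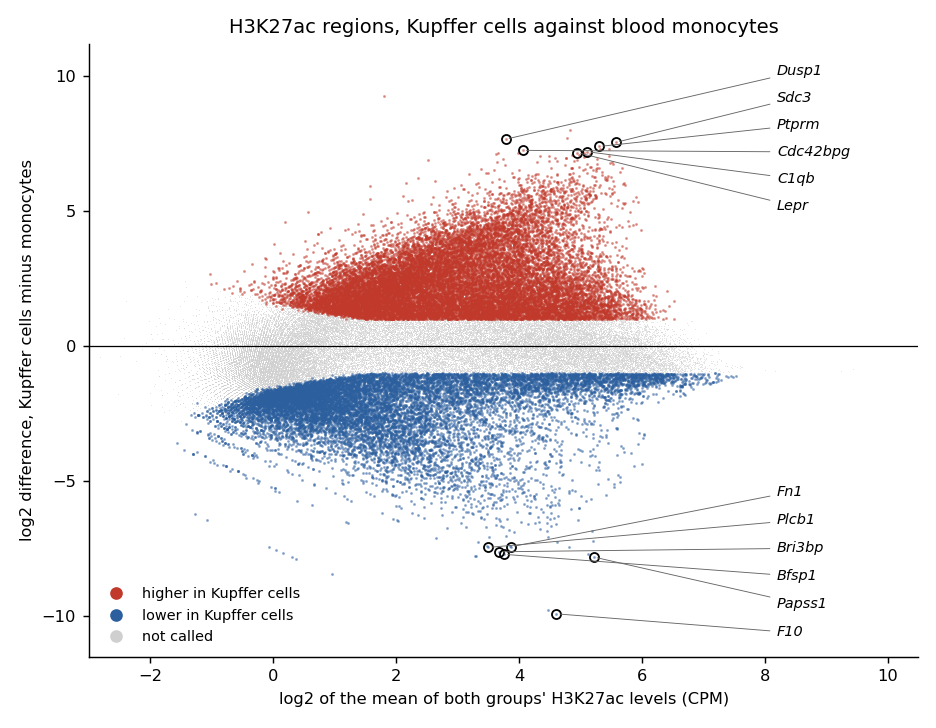
Every tested region by the log2 of the mean level of both groups (CPM) and by log2 difference, Kupffer cells minus monocytes, with the nearest genes of the 12 named regions. The 20184 higher regions are red, the 14353 lower regions blue, and both spread to more than 16-fold.

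Called regions were ranked by difference where the libraries of the groups did not overlap. The level in the higher group had to exceed the median of the calls, and each gene was taken once. Of the 12 regions ranked first, 6 in each direction, 8 sat in introns or between genes and 4 at promoters. The nearest genes are named as a position only. In mm10, chr4:130796024-130798024, in an intron of Sdc3 (syndecan-3, a heparan sulphate proteoglycan), had 76.2 and 114 CPM in Kupffer cells and 0.413 and 0.578 CPM in monocytes, and chr17:67346491-67348491, in an intron of Ptprm (a receptor tyrosine phosphatase that binds its like on neighbouring cells), had 62.7 and 94.3 CPM in Kupffer cells and 0.661 and 0.248 CPM in monocytes. The log2 differences were 7.56 and 7.40, with adjusted p-values of 3.71e-28 and 5.39e-28. In both regions the lower Kupffer cell library stood far above the higher monocyte library, though libraries that did not overlap were a condition of the ranking. An intronic region of Cdc42bpg at chr19:6291191-6293191 had 27.7 and 38.7 CPM in Kupffer cells and 0.248 and 0.165 CPM in monocytes. Between genes, chr17:26464189-26466189, whose nearest gene is Dusp1 (a phosphatase that inactivates MAP kinases) 43283 bp away, had 24.2 and 30.7 CPM in Kupffer cells and 0.165 and 0.0826 CPM in monocytes. The monocyte libraries held 3 tags there in all, so the ratio of 230.3 has a counting interval of 78.5 to 1119.6. On the monocyte side, chr3:131489334-131491334, 74434 bp from Papss1 (an enzyme of sulphate activation), had 0.596 and 0.176 CPM in Kupffer cells and 64.6 and 83.2 CPM in monocytes (log2 difference -7.80). A further 3 regions held 3 Kupffer cell tags each: the Plcb1 (a phospholipase C) promoter at chr2:134785107-134787107 with 0.119 and 0.117 CPM in Kupffer cells and 19.5 and 25.6 CPM in monocytes, a Bfsp1 intron at chr2:143835012-143837012 with 0.119 and 0.117 CPM in Kupffer cells and 24.6 and 29.2 CPM in monocytes, and a Bri3bp intron at chr5:125443728-125445728 with 0.238 and 0.0587 CPM in Kupffer cells and 26.4 and 24.6 CPM in monocytes.

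The calls were set out by position. A distance to the nearest start above 3 kb was found for 74.97% of the higher and 69.4% of the lower calls, against 65.9% of all tested regions. With a 4-fold minimum that order turned, with 78.7% of the higher and 79.2% of the lower calls. Promoter regions made up 9.96% of the higher calls, 17.1% of the lower calls and 18.5% of the regions tested. Seen from the classes, 13.5% of the 14950 promoter regions were higher and 16.4% lower, whereas 30.0% of intronic regions were higher and 17.5% lower, and 25.2% of intergenic regions were higher and 19.0% lower. Differences beyond 4-fold were found in 10.3% of promoter regions and 27.4% of regions over 3 kb away. 7307 genes had both a tested promoter region and a tested region over 3 kb away. In 4810 of them no promoter region was called, and of these 1397 had distal regions that were higher and none lower, 949 had distal regions that were lower and none higher, 486 had both, and 1978 had no distal call. Of the 1209 genes with a higher promoter, 894 also had a higher distal region, and of the 1298 with a lower promoter, 715 also had a lower distal region.

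Motif letters were counted on both strands in the 300-base promoters of 1157 genes whose promoter region was higher in Kupffer cells, 1537 whose promoter region was lower and all 9427 matched promoters. The IRF letters AANNGAAA were in 21.3% of higher, 14.96% of lower and 17.4% of all promoters. The AP-1 letters TGANTCA were in 7.09% of higher, 5.27% of lower and 4.76% of all, the C/EBP letters TTGCNNAA in 9.85%, 7.74% and 7.96% in that order, and the TATA box letters TATAAA in 8.56%, 5.34% and 6.16%. The ETS/PU.1 letters GAGGAAGT were in 4.84% of higher, 4.29% of lower and 3.59% of all promoters, and the RBPJ letters GTGGGAA in 5.88%, 5.79% and 5.92%. The nuclear receptor single-repeat letters AAAGGTCA were in 1.38%, 0.26% and 0.87%, and the NF-kappa-B letters GGGANTTTC in 1.64%, 0.78% and 1.01%. The SP letters GGGCGGGG ran the other way, in 31.5% of higher, 36.8% of lower and 35.4% of all promoters. The MAF letters TGCTGAC were in 3.89%, 3.25% and 3.49%, the KLF letters GGGTGTGG in 4.75%, 4.23% and 3.92%, the RUNX letters TGTGGTTT in 1.47%, 1.63% and 1.14%, the TFE letters TCACGTGA in 1.47%, 1.56% and 2.04%, and the SMAD palindrome GTCTAGAC in 0.35%, 0.26% and 0.24%. The spaced LXR repeat known as DR4 was in none of the windows in the exact form searched. Some motifs share letters with another (KLF with SP), and a match is only a run of letters. Base composition differed beside these shares: median GC was 60.3% in higher, 62.0% in lower and 61.3% in all promoters, and the median ratio of observed to expected CpG was 0.666, 0.789 and 0.781. The part of composition in the motif shares was not tested.

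For genes, tags were summed over the regions within 100 kb whose nearest annotated start was that gene's, which gives a level around the gene and does not show that each region acts on it. Of 16749 genes tested, 3084 (18.4%) were higher in Kupffer cells and 2411 (14.4%) were lower, with a median log2 difference over all genes of -0.08. Scaling by total tags in place of TMM (edgeR's trimmed mean scaling) moved that median by -0.29 and gave 2324 higher and 3661 lower genes, and turned no call round. The gene levels below are CPM of those sums, set side by side between groups but not between genes, whose regions differ in number.

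The genes ranked highest in Kupffer cells were of varied function. Ranking by difference took called genes, without predicted or unnamed symbols, whose libraries did not overlap between the groups. Their mean level in Kupffer cells also had to exceed 65.4 CPM, the median of the genes called higher. Genes below that level, such as Bmpr1a (log2 6.99), were not ranked. C1qc, the C chain of complement C1q, had 77.1 and 72.8 CPM in Kupffer cells and 1.96 and 0.423 CPM in monocytes (log2 difference 5.96, SE 0.34, adjusted p = 4.41e-13). Fcna, a ficolin that starts the lectin pathway of complement, had 63.96 and 70.01 CPM in Kupffer cells and 1.70 and 1.52 CPM in monocytes (log2 5.37). Clec1b, a C-type lectin receptor for podoplanin, had 245 and 316 CPM in Kupffer cells and 8.44 and 2.96 CPM in monocytes (log2 5.62). In each of these the Kupffer cell libraries lay close together. That they lay above both monocyte libraries was a condition of the ranking. Fam167a had 255 and 291 CPM in Kupffer cells and 3.41 and 6.25 CPM in monocytes (log2 5.82). Aspa, which cleaves N-acetylaspartate, had 152 and 214 CPM in Kupffer cells and 4.52 and 2.87 CPM in monocytes (log2 5.63). Dmpk, a serine/threonine kinase, had 137 and 143 CPM in Kupffer cells and 2.39 and 3.63 CPM in monocytes (log2 5.53). None of these had overlapping libraries, by the same condition. Pcolce2, which enhances procollagen processing, had 269 and 342 CPM in Kupffer cells and 8.61 and 4.82 CPM in monocytes, and Ptprm had 828 and 996 CPM in Kupffer cells and 28.5 and 23.1 CPM in monocytes. Paqr9 (log2 5.35), Ttyh2 (5.34), which encodes a membrane protein of the tweety family, the leptin receptor Lepr (5.17) and Oacyl (5.09) completed the 15 genes ranked under this rule.

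The genes ranked lowest were varied too. The same rule was used, with a mean level in monocytes above 18.8 CPM, the median of the genes called lower. Hp, the haemoglobin scavenger haptoglobin, had 1.56 and 0.649 CPM in Kupffer cells and 37.2 and 29.5 CPM in monocytes (log2 -5.09, SE 0.35, adjusted p = 6.52e-14). F7, coagulation factor VII, had 1.70 and 1.82 CPM in Kupffer cells and 43.5 and 55.3 CPM in monocytes (log2 -4.79). Padi4, the peptidylarginine deiminase known from neutrophil extracellular traps, had 6.51 and 3.18 CPM in Kupffer cells and 106 and 114 CPM in monocytes (log2 -4.61). The monocyte libraries of all 3 lay more than 10-fold above the Kupffer cell libraries. Myo5a, a myosin motor that carries vesicles, had 5.52 and 4.03 CPM in Kupffer cells and 109.8 and 145 CPM in monocytes (log2 -4.78). Xylt1, which starts glycosaminoglycan chains, had 13.3 and 10.6 CPM in Kupffer cells and 320.3 and 368 CPM in monocytes (log2 -4.87). Fn1 (fibronectin, -7.32) and F10 (-7.25) had the largest log2 differences of this ranking. Fam25c (-5.86), Smim5 (-5.43) and the splicing regulator Mbnl3 (-5.21) also ranked above Hp. Pdlim1 (-5.08), Pqlc3 (-4.99), the aspartic protease Napsa (-4.65) and Slc22a15 (-4.64) ranked below it. The Fn1, F10 and Mbnl3 sums held 8, 17 and 13 Kupffer cell tags, so the size of their differences is imprecise.

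**Figure D2:**
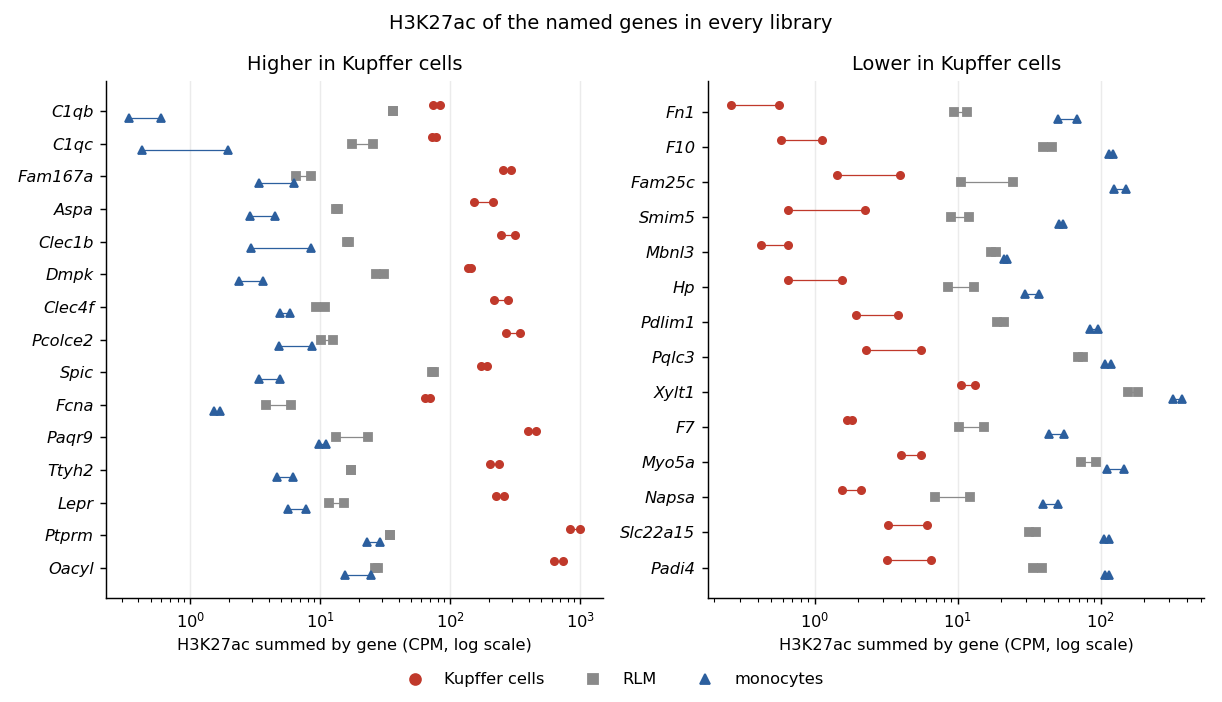
Level (CPM of the tag sum, log axis) of the highest-ranked genes on each side in each library of Kupffer cells, RLM and monocytes. The Kupffer cell and monocyte points do not meet for any gene shown, which was a condition of the ranking. C1qb had 73.9 and 83.3 CPM in Kupffer cells and 0.597 and 0.338 CPM in monocytes.

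Some genes differed over long stretches of chromatin. Among genes with calls in a single direction, Rgl1 (a Ral guanine nucleotide exchange factor) had 20 of 21 loci higher in Kupffer cells, Frmd4b 18 of 20, the integrin subunit gene Itga9 18 of 22, the DNA methyltransferase gene Dnmt3a 15 of 19, Rxra (the dimer partner of LXR) 15 of 16 and the semaphorin gene Sema6d 15 of 18. Itga9 had 1099.7 and 1209.7 CPM in Kupffer cells and 47.2 and 42.9 CPM in monocytes, and its intronic region chr9:118665254-118667254 alone had 57.7 and 74.4 CPM in Kupffer cells and 0.165 and 0.743 CPM in monocytes. Rxra had 613 and 688 CPM in Kupffer cells and 86.3 and 83.9 CPM in monocytes. Its promoter differed by a log2 of 1.16, and an intronic region 17558 bp downstream of the start by 5.88. The same count on the lower side gave Sgms1 (sphingomyelin synthase) 25 of 28 loci, Mbp 13 of 14, Runx3 (a transcription factor of T and myeloid cells) 13 of 16, the guanine deaminase gene Gda 12 of 15, Pacsin2 (membrane curvature in endocytosis) 12 of 13 and the transcription factor gene Mef2c 11 of 11. Sgms1 had 249 and 242 CPM in Kupffer cells and 794 and 1044 CPM in monocytes. Its promoters did not move alike. The 2 overlapping regions at one start differed by log2 values of -0.04 and -0.39 and were not called, with 15.98 and 14.5 CPM in Kupffer cells and 14.1 and 17.2 CPM in monocytes at chr19:32387554-32389554. The promoter region of another annotated start, chr19:32210032-32212032, had 4.29 and 4.11 CPM in Kupffer cells and 24.9 and 37.8 CPM in monocytes (log2 -2.90, called lower). At Mef2c the promoter moved with the rest: chr13:83523796-83525796 had 0.715 and 0.880 CPM in Kupffer cells and 24.4 and 38.97 CPM in monocytes.

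**Figure D3:**
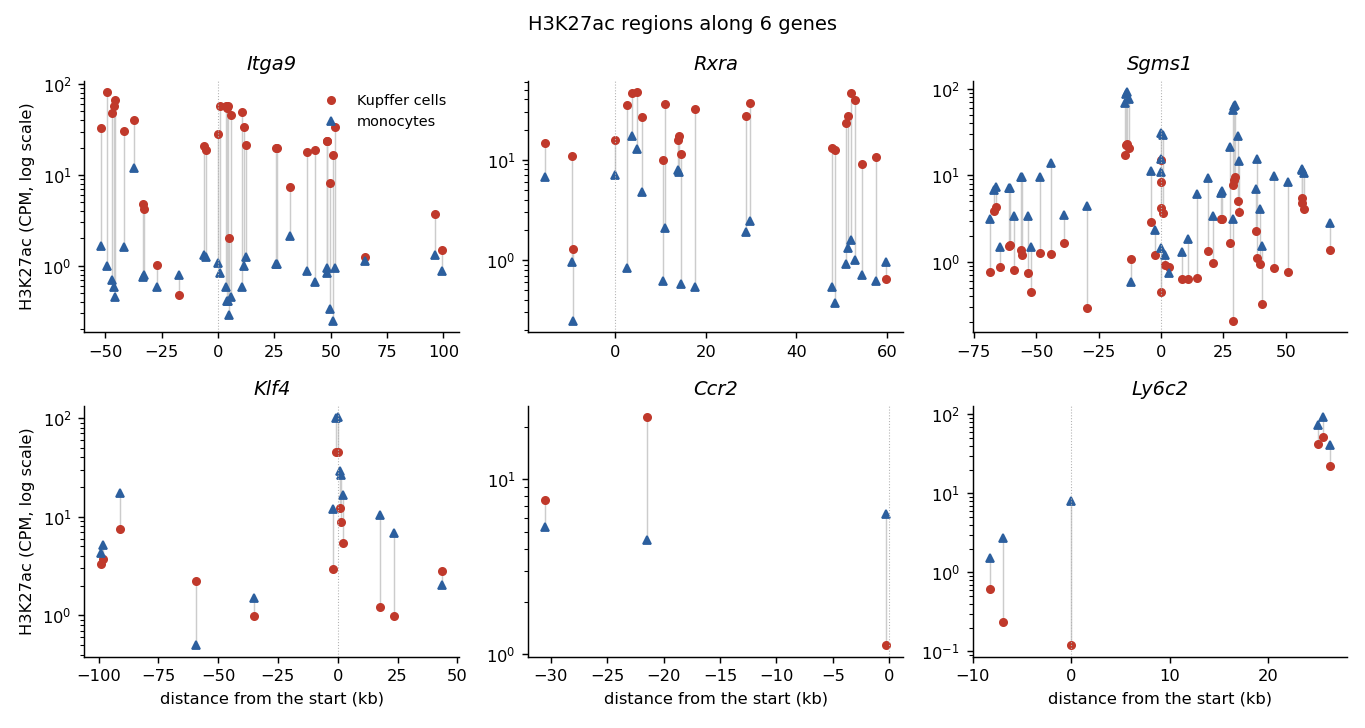
Mean level (CPM, log axis) of each region in Kupffer cells and monocytes, joined by a line, by its distance from the nearest annotated start of the gene (kb), for Itga9, Rxra, Sgms1, Klf4, Ccr2 and Ly6c2. Kupffer cells lie above monocytes in nearly all Itga9 and Rxra regions and below them in nearly all Sgms1 regions; at Ccr2 they lie below at the promoter and above at both upstream regions.

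In 1316 of 16672 genes, loci were called in both directions, with 4127 higher only and 4145 lower only. Iqgap2, a scaffold of the actin cytoskeleton, had 7 loci higher and 5 lower of 16, and Rap1gap2, which switches off the GTPase Rap1, 6 higher and 5 lower of 13. Runx1, a transcription factor of blood cell formation, had 4 higher and 7 lower of 21 loci, with 625 and 715 CPM in Kupffer cells and 415 and 457 CPM in monocytes over the whole gene (log2 0.62, not called). Its promoters split: chr16:92825013-92827013 had 57.3 and 76.1 CPM in Kupffer cells and 30.6 and 34.8 CPM in monocytes (log2 1.03, called), and chr16:92696436-92698436 had 18.96 and 24.4 CPM in Kupffer cells and 32.7 and 42.8 CPM in monocytes (log2 -0.79, not called). Runx2, a factor known from bone formation, also split by promoter: chr17:44735472-44737472 had 0.954 and 0.293 CPM in Kupffer cells and 8.68 and 7.68 CPM in monocytes (log2 -3.91, called), and chr17:44813715-44815715 had 2.03 and 2.87 CPM in Kupffer cells and 1.57 and 1.49 CPM in monocytes (log2 0.70, not called). Csrp1 (6 higher and 4 lower of 15 loci), Dock10 (6 and 4 of 20) and Klhl25 (4 and 6 of 16) were the other genes with the most calls both ways.

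For some monocyte genes the promoter and the sum over the gene ran apart. The promoter of Ccr2, the chemokine receptor by which these monocytes leave the bone marrow, had 0.954 and 1.29 CPM in Kupffer cells and 5.12 and 7.60 CPM in monocytes (log2 -2.44, called lower). A region 21475 bp upstream had 19.3 and 26.1 CPM in Kupffer cells and 3.47 and 5.53 CPM in monocytes (log2 2.34, called higher), and the gene's sum was called higher (log2 1.11). The value for Ccr2 therefore depends on which regions are counted. Ly6c2, whose promoter is shown above, had 130.3 and 140.2 CPM in Kupffer cells and 236 and 217 CPM in monocytes over all its regions (log2 -0.74, not called).

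Lists of genes by role are read against the background of 18.4% higher and 14.4% lower over all genes and a median log2 of -0.08. The lists share members, so their counts are not separate from each other. Also in another list were 15 of 30 Kupffer cell identity genes and 12 of 22 liver macrophage factors. The same held for 10 of 20 scavenger receptor genes and 9 of 20 apoptotic cell uptake genes. Called genes close to the limits are named with their values, but the calls of Cd63, Clec4g, Csrp1, Ccr2, Eef1a1, Eng, Klf4, Masp1, Mfge8, Notch3, Ptgs2, Smad1 and Smad4 were lost when 1 of the 4 libraries was left out. Over the list members named, the SE of the log2 difference lay between 0.142 and 0.879, and the adjusted p of those called was at most 0.0488. The calls of Ctgf, Rap1gap2, Ppargc1b and Selplg rested on which regions were summed and changed sign under another choice. Of 30 genes of Kupffer cell identity, 26 were higher and 2 lower (median log2 3.24). Clec4f had 218 and 279 CPM in Kupffer cells and 5.88 and 4.90 CPM in monocytes, and Timd4 had 277 and 279.6 CPM in Kupffer cells and 16.02 and 9.63 CPM in monocytes. Cd38, an enzyme that consumes NAD, had 596 and 648 CPM in Kupffer cells and 27.95 and 26.9 CPM in monocytes. The libraries of the groups did not overlap at these members. The members were named for large differences, from a list chosen with earlier results of these data known. They therefore do not test the identity of the cells. The share of all genes without overlap is not given here. The 4 members without a higher call were Arhgef37 (-2.80) and Cdh1 (-1.22), which were lower, and Folr2 (0.98) and Cd207 (0.63), which were not called. Classical monocyte genes had 12 lower and 3 higher of 19 tested of 20 listed (median log2 -2.64). Vcan, the proteoglycan versican, had 22.4 and 18.4 CPM in Kupffer cells and 129.5 and 148 CPM in monocytes (log2 -2.78), and S100a4, a calcium-binding protein, had 0.566 and 0.974 CPM in Kupffer cells and 18.4 and 15.5 CPM in monocytes (log2 -4.34). The 3 higher members were Plac8 (1.53), Gsr (1.21) and Ccr2. Genes of patrolling, non-classical monocytes split, with 4 higher and 5 lower of 12: the fractalkine receptor gene Cx3cr1 (-1.91) and Ace (-1.72) were lower, and Cd300e (2.69) and Treml4 (2.31) higher.

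**Figure D4:**
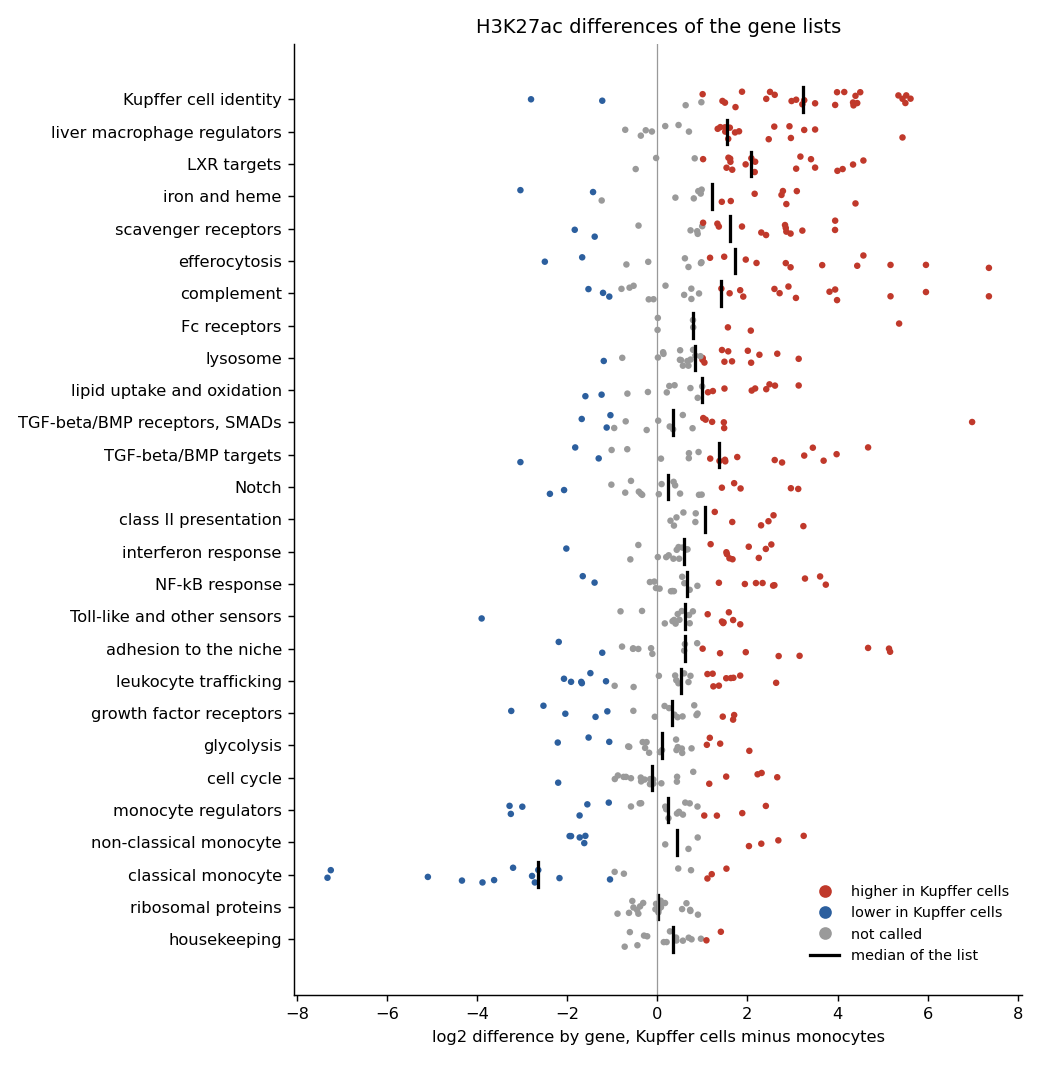
Log2 difference (Kupffer cells minus monocytes) of each tested member of each list, coloured by its call, with the list median as a black bar. The Kupffer cell identity list (26 of 30 higher) and the LXR target list (18 of 21) lie furthest to the higher side, and the classical monocyte list (12 of 19 lower) furthest to the lower side.

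Transcription factor genes were called in both directions. Of 22 liver macrophage factors, 15 were higher and none lower (median log2 1.54). Nr1h3, which encodes LXR-alpha, had 157 and 172 CPM in Kupffer cells and 13.1 and 15.9 CPM in monocytes (log2 3.50). Irf8, a factor of the macrophage and dendritic lineages, had 476 and 495 CPM in Kupffer cells and 85.5 and 89.4 CPM in monocytes (log2 2.47). Spi1, which encodes PU.1, had 403 and 463 CPM in Kupffer cells and 138 and 145 CPM in monocytes (log2 1.61). In all 3 the groups were apart. Id3 (3.26), Tcf7l2 (2.60), Maf (1.81), Mitf (1.57) and Zeb2 (1.40) were also higher, while Rbpj (-0.37), Irf7 (0.47), Smad7 (0.70), Hes6 (-0.71), Nr4a1 (0.18), Ppard (-0.26) and Atf3 (-0.12) were not called. Of 23 monocyte factors, 4 were higher and 6 lower (median log2 0.25). The lower ones included Runx2, with 13.4 and 11.8 CPM in Kupffer cells and 108 and 135 CPM in monocytes, Runx3 (-2.996), the progenitor factor gene Myb (-3.25), Cebpb (-1.72) and Bach2 (-1.55). Klf4, required for Ly6C-high monocytes in mice, was the sixth, with 180.3 and 149 CPM in Kupffer cells and 323 and 369.7 CPM in monocytes (log2 -1.08). Ets1 (2.41) and Ets2 (1.89) were higher.

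Among receptors of the TGF-beta and BMP pathway, 6 were higher and 3 lower of 17 tested (median log2 0.35). Bmpr1a had 33.3 and 24.03 CPM in Kupffer cells and 0.426 and 0 CPM in monocytes, with 5 monocyte tags in all. Tgfbr1 (1.48), Smad5 (1.48) and Smad1 (1.07) were higher, and the co-receptor genes Tgfbr3 (-1.68) and Eng (-1.12) and Smad4 itself (-1.04) were lower. Known target genes of the pathway had 12 higher and 3 lower of 21 (median log2 1.38). Id2, an inhibitor of basic helix-loop-helix factors, had 523 and 698 CPM in Kupffer cells and 36.5 and 40.9 CPM in monocytes (log2 3.98). Ctgf (3.69), Rgs1 (3.45) and the inhibitory Smad6 (1.51) were higher. The iron hormone gene Hamp (-3.04), Ltbp1 (-1.82) and the decoy receptor gene Bambi (-1.30) were lower.

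Notch pathway genes had 5 higher and 2 lower of 20 tested (median log2 0.23). The median was -0.11 without Kupffer cell library 1 and -0.16 without monocyte library 1, so its sign rests on single libraries. Of the target genes, Hes1, a repressor induced by Notch, had 257 and 259 CPM in Kupffer cells and 23.3 and 42.8 CPM in monocytes (log2 2.97), and Hey1 differed by 3.13. Notch1 (1.43), the coactivator gene Maml2 (1.85) and the protease gene Adam17 (1.71) were higher, and the ligand gene Jag1 (-2.38) and Notch3 (-2.07) were lower. Notch2 (-0.58) and the targets Hey2 (-0.34), Nrarp (0.36), Hes5 (0.10), Dtx1 (0.40) and Dtx4 (0.99) were not called.

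LXR target genes had 18 higher and none lower of 21 tested (median log2 2.09). Abca1, which exports cholesterol, had 827 and 962 CPM in Kupffer cells and 53.5 and 49.8 CPM in monocytes (log2 4.11). Apoc1, an apolipoprotein gene, had 213 and 287 CPM in Kupffer cells and 17.7 and 13.6 CPM in monocytes (log2 3.998), and Scd1, which desaturates fatty acids, had 281 and 269 CPM in Kupffer cells and 28.2 and 32.5 CPM in monocytes (log2 3.18). No library of Kupffer cells reached down to a monocyte library in these genes. Abcg8 (-0.48), Arl4c (-0.03) and Apoc2 (0.83) were not called. Genes of lipid uptake and oxidation had 9 higher and 2 lower of 19 (median log2 1.00): Lipa, the lysosomal lipase (3.14), the coactivator gene Ppargc1b (2.61) and Pdk4 (2.49) were higher, and the fatty acid binding protein genes split, with Fabp7 (2.42) higher and Fabp4 (-1.60) and Fabp5 (-1.24) lower. Glycolysis genes had 4 higher and 3 lower of 21 (median log2 0.10). Hk3, a hexokinase of myeloid cells, was higher (2.04), and the lactate exporter gene Slc16a3 (-2.21) and Pfkp (-1.52) were lower.

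Genes of clearance had more higher than lower calls. Scavenger receptors had 13 higher and 2 lower of 20 (median log2 1.62), apoptotic cell uptake genes 12 higher and 2 lower of 20 (1.72), and iron and haem genes 8 higher and 2 lower of 16 (1.21). Mertk, which binds bridging proteins on dying cells, had 315 and 369 CPM in Kupffer cells and 15.6 and 13.1 CPM in monocytes (log2 4.57). Slc40a1, the iron exporter ferroportin, had 352 and 425 CPM in Kupffer cells and 18.5 and 18.3 CPM in monocytes (log2 4.40). Cxcl16, a scavenger of oxidised lipoprotein and a chemokine, had 187 and 230.3 CPM in Kupffer cells and 9.72 and 17.4 CPM in monocytes (log2 3.95). All 3 stood far above the monocyte libraries. Axl (3.66), Marco (3.22), Stab1 (2.85), the haemoglobin receptor gene Cd163 (2.86) and the haem transporter gene Slc48a1 (3.10) were higher. Itgb3 (-2.50), Mfge8 (-1.67), the oxidised lipoprotein receptor gene Olr1 (-1.83) and Ireb2 (-1.43) were lower. Complement genes had 14 higher and 3 lower of 27 tested of 30 listed (median log2 1.42). C6, of the membrane attack complex, had 37.1 and 38.8 CPM in Kupffer cells and 2.98 and 1.77 CPM in monocytes (log2 3.99), and Vsig4, a receptor for C3 fragments, had 28.3 and 34.7 CPM in Kupffer cells and 2.56 and 1.52 CPM in monocytes (log2 3.95). C3 itself was lower (-1.53), with Cr1l (-1.20) and Masp1 (-1.07). Lysosomal genes had 12 higher and 1 lower of 27 (median log2 0.84), led after Lipa by the protease gene Ctsd (2.66), and Cd63 (-1.19) was the lower one. Of 7 Fc receptor and ficolin genes tested, Fcgr4 (1.57), Fcer1g (2.08) and Fcna were higher and none lower.

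Antigen presentation and inflammatory genes had more higher than lower calls too. MHC class II genes had 6 higher and none lower of 12 (median log2 1.06). H2-Eb1, a class II beta chain, had 258 and 301 CPM in Kupffer cells and 19.7 and 39.3 CPM in monocytes (log2 3.24), and the class II transactivator gene Ciita had 95.9 and 92.5 CPM in Kupffer cells and 14.3 and 17.2 CPM in monocytes (log2 2.58). NF-kappa-B and inflammatory genes had 9 higher and 2 lower of 22 (median log2 0.66). Il10, an anti-inflammatory cytokine, had 201 and 207 CPM in Kupffer cells and 16.3 and 17.1 CPM in monocytes (log2 3.61), and Il12b, a subunit of heterodimeric interleukins, had 236 and 279 CPM in Kupffer cells and 21.1 and 17.4 CPM in monocytes (log2 3.74). Il1a (3.28) and the inhibitor gene Nfkbia (2.57) were higher, Traf1 (-1.65) and Ptgs2 (-1.39) were lower, and Tnf (0.05) and Il1b (0.37) were not called. Interferon-response genes had 9 higher and 1 lower of 22 (median log2 0.59): Oasl1 (2.53) and Isg15 (2.41) were higher and Isg20 (-2.02) was lower. Pathogen-sensing genes had 7 higher and 1 lower of 20 (median log2 0.62). Cd14, a coreceptor for endotoxin (1.84), Tlr4 (1.47) and Tlr3 (1.59) were higher. Clec4e, the lectin receptor Mincle for mycobacterial glycolipid, had 5.52 and 2.79 CPM in Kupffer cells and 55.4 and 59.9 CPM in monocytes (log2 -3.90) and was the lower one.

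Genes for movement and residence were mixed. Of 24 trafficking genes, 9 were higher and 6 lower (median log2 0.53). Cxcr4, which holds leukocytes in bone marrow, had 60.8 and 57.6 CPM in Kupffer cells and 229 and 268 CPM in monocytes (log2 -2.07), and the selectin ligand gene Selplg (-1.14), Itgb7 (-1.67) and Cxcr2 (-1.69) were lower too. The formyl peptide receptor gene Fpr1 (2.64), C5ar1 (1.84) and Itgb1 (1.69) were higher. Niche adhesion genes had 8 higher and 2 lower of 19 tested (median log2 0.61). Vcam1, an adhesion molecule that binds integrin alpha 4, had 283 and 372 CPM in Kupffer cells and 39.7 and 33.7 CPM in monocytes (log2 3.16), and Jam2 was lower (-2.19). Receptors of growth factors and cytokines had 3 higher and 5 lower of 18 (median log2 0.32), and 6 were higher and 5 lower without monocyte library 2. Csf1r, the receptor on which macrophages depend, had 228 and 222 CPM in Kupffer cells and 63.5 and 74.4 CPM in monocytes (log2 1.71), and the progenitor receptor gene Flt3 had 7.92 and 5.65 CPM in Kupffer cells and 65.9 and 59.1 CPM in monocytes (log2 -3.24). The interleukin-1 decoy receptor gene Il1r2 (-2.04), Il3ra (-1.37) and Csf2ra (-1.11) were lower.

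Ribosomal and housekeeping genes had few calls. None of 22 ribosomal protein genes tested was called (median log2 0.03, lowest Rpl4 at -0.88 and highest Rpl10a at 0.90). Of 16 housekeeping genes 2 were higher, Tubb5 (1.41) and Eef1a1 (1.09). Of 22 genes of the cell cycle, 5 were higher and 1 lower (median log2 -0.12), with Ccnd1 (2.66), Cdk1 (2.32) and Myc (2.23) higher and the cell cycle inhibitor gene Cdkn1a lower (-2.20). Over promoter regions alone Cdk1 differed by 0.37 and was not called, while Ccnd1 (5.00), Myc (2.98) and Cdkn1a (-2.01) kept their calls. Under scaling by total tags the medians of the ribosomal, glycolysis, Notch and monocyte factor lists fell below 0. The counts became 4 higher and 4 lower for the cell cycle, 3 and 4 for TGF-beta and BMP receptors and 6 and 7 for trafficking genes, so the lean of these lists depends on the scaling. The same scaling gave 2 higher and 3 lower glycolysis genes. Without Kupffer cell library 2 or monocyte library 2, 1 TGF-beta or BMP receptor gene was lower, and without Kupffer cell library 2 the glycolysis median was -0.03. With promoter regions only, growth factor receptors had 4 higher and 2 lower, monocyte factors 5 higher and 4 lower and non-classical monocyte genes 4 higher and 2 lower.

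Markers of other cells were read beside these lists. Of 12 hepatocyte markers, 5 were tested and 2 were higher, Ttr (3.996) and Apoa2 (2.31), and the summed level was 129 and 120.4 CPM in Kupffer cells against 54.7 and 49.1 CPM in monocytes. Over promoter regions alone Apoa2 differed by 0.43 and was not called. Alb had 6.23 and 5.00 CPM in Kupffer cells and 3.58 and 4.14 CPM in monocytes and was not called. The other 7 hepatocyte markers were not tested. Liver endothelial markers had 6 higher and 2 lower of 13 tested (3 and 4 under scaling by total tags), with sums of 407 and 452 CPM in Kupffer cells and 254 and 247 CPM in monocytes. Gpr182 (4.47), Cldn5 (3.13) and Stab2 (2.96) were higher, and Kdr (-1.45) and Clec4g (-1.39) were lower. Stellate cell markers had 3 tested of 10 listed and none called. Neutrophil markers had 3 higher and 5 lower of 12 tested (2 and 3 without Kupffer cell library 2), with sums of 306 and 355 CPM in Kupffer cells and 199.9 and 219 CPM in monocytes. Ly6g (-2.48) was 1 of the 5 lower members, and the 3 higher ones are not named here. Dendritic cell markers had 5 higher and 4 lower of 12 (2 and 4 under that scaling), lymphocyte markers 1 higher and 2 lower of 7 and red cell and platelet markers 2 higher and 2 lower of 7. The part of such cells in the differences was not tested.

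Transcription factor peaks from the same series were laid over the regions. The peaks were the authors', called per library for LXR in Kupffer cells and for SMAD4 and RBPJ in Kupffer cell nuclei of untreated Clec4f-cre mice (2 libraries each), from chromatin fixed with DSG and formaldehyde. Peaks of the first library that overlapped a peak of the second were kept. A region counted when such a first-library peak overlapped it by at least 1 bp. The second LXR library was paired with an input named for a NASH diet, per the file header. LXR peaks lay in 57.9% of the regions higher in Kupffer cells, 20.3% of those lower and 35.7% of those not called. For SMAD4 the shares were 45.5%, 19.7% and 32.3% in that order, and for RBPJ 13.04%, 5.85% and 10.9%. None of the 3 factors had a peak in 32.2% of the higher, 71.6% of the lower and 54.2% of the uncalled regions. Across the range of differences, the share with an LXR peak went up with the log2 difference, from 5.16% of regions below -4 to 70.0% above 4, with 4.78% and 56.6% for SMAD4. The RBPJ share was 1.03% below -4 and went up only among lower regions: it lay between 11.5% and 13.6% in every bin above -1. In bone marrow-derived macrophages the same counts were flatter. LXR (culture day 7, 18 h with the agonist GW3965) had peaks in 40.03% of higher, 27.04% of lower and 28.2% of uncalled regions. At culture day 4 without treatment, the SMAD4 shares were 30.2%, 24.2% and 26.6%, and the RBPJ shares 65.7%, 68.7% and 69.3%. The LXR peaks thus came from another culture day and treatment than the SMAD4 and RBPJ peaks. The peak lists also differed in size. In Kupffer cells 23113 LXR, 18593 SMAD4 and 5444 RBPJ peaks were kept. In bone marrow-derived macrophages the numbers were 20354, 16969 and 62698 in that order. A share can depend on the size of its list, so shares of different lists do not compare binding. The part of list size was not tested.

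The level of H3K27ac in Kupffer cells moved with these shares. Among regions at 8 to 16 CPM in Kupffer cells, LXR peaks lay in 57.0% of the higher, 51.1% of the lower and 58.4% of the uncalled regions, and at 16 to 32 CPM in 66.5%, 59.3% and 65.5%. For SMAD4 the shares at 8 to 16 CPM were 43.1%, 53.5% and 55.0%, and at 16 to 32 CPM 55.6%, 65.5% and 65.2%, so at a like level the higher regions had the smallest share. RBPJ at 16 to 32 CPM gave 15.8%, 23.2% and 22.6%. At 2 to 4 CPM the LXR shares were 38.4% of the higher, 34.7% of the lower and 31.9% of the uncalled regions, and at 4 to 8 CPM 47.1%, 46.7% and 48.7%. This split by level was chosen after the pooled shares had been seen. From 4 to 32 CPM the LXR share of higher regions thus lay close to that of uncalled regions of like level and above or near that of lower ones. In promoter regions, a split also chosen after the pooled shares were seen, LXR peaks lay in 57.5% of the higher, 40.3% of the lower and 58.3% of the uncalled regions. The SMAD4 shares there were 58.8%, 45.1% and 56.8%, and the RBPJ shares 16.8%, 13.9% and 18.8%, so the pooled excess of LXR over uncalled regions was not seen at promoters. It was seen over 3 kb from a start, where LXR peaks lay in 59.8% of higher, 14.1% of lower and 25.4% of uncalled regions. The SMAD4 shares there were 44.1%, 11.4% and 20.2%, and the RBPJ shares 12.6%, 3.36% and 7.12%. These distal shares were not split by level.

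**Figure D5:**
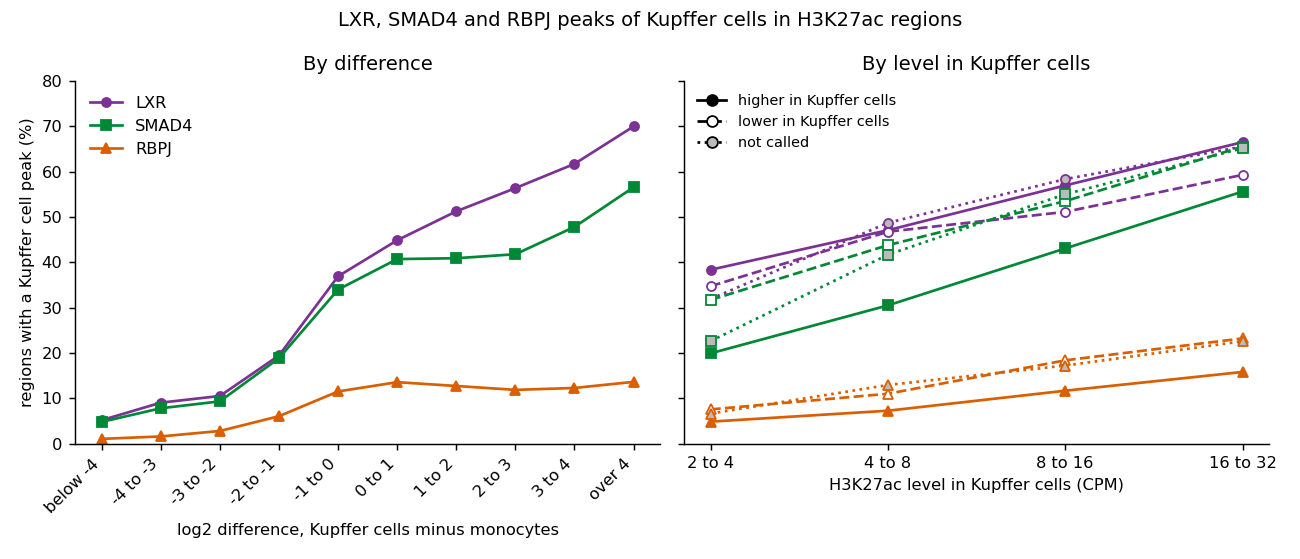
Percent of regions with a peak of LXR, SMAD4 or RBPJ in both Kupffer cell libraries, by bins of the log2 difference in H3K27ac (Kupffer cells minus monocytes) and by bins of the H3K27ac level in Kupffer cells (CPM). The LXR share climbs from 5.16% in the lowest bin to 70.0% in the highest; the RBPJ share is 1.03% in the lowest bin and 11.5% to 13.6% in the bins above -1.

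At single promoters, C1qb, Timd4 and Bmpr1a had peaks of all 3 factors, Spic had LXR alone, Clec4f had SMAD4 alone, and F10 and Ly6c2 had none. Of the 6 regions ranked first on the higher side, the C1qb region held peaks of all 3 factors and the Dusp1 and Lepr regions LXR and SMAD4. The Ptprm region held LXR alone, the Cdc42bpg region SMAD4 alone and the Sdc3 region none. The 6 on the lower side held none.

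RLM libraries are given beside the Kupffer cells as levels only, since the comparisons share libraries. At Clec4f Kupffer cells had 218 and 279 CPM, RLM 9.20 and 10.9 CPM and monocytes 5.88 and 4.90 CPM. At Hes1 Kupffer cells had 257 and 259 CPM, RLM 237 and 193 CPM and monocytes 23.3 and 42.8 CPM. At Runx3 the levels were 17.7 and 14.9 CPM in Kupffer cells, 119.6 and 117 CPM in RLM and 125 and 133 CPM in monocytes. Clec4f thus lay near the monocyte level in RLM, Hes1 near the Kupffer cell level, and Runx3 near the monocyte level.

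Depth set the precision. The Kupffer cell libraries held 8219888 and 19498952 tags in regions, the RLM libraries 7368619 and 9467633 and the monocyte libraries 11558081 and 12321050. A satellite stretch on chromosome 2 took 2.20% and 1.72% of the tags in Kupffer cells, 8.87% and 9.03% in RLM and 4.61% and 3.91% in monocytes. 55.2% of the regions overlapped a neighbour, so a tag can count more than once, and counting intervals cover counting error only. No input of the H3K27ac libraries was used here.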

How the data were processed

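H3K27ac chromatin immunoprecipitation sequencing libraries of Kupffer cells, RLM and blood Ly6C-high monocytes (2 each) were compared. The deposited table holds raw tag counts per 2000 bp region, made by the authors with Bowtie2 and HOMER on mm10, per the submitters' processing notes; versions are not given in the sources used here. The region list and the nearest gene of each region are the authors' deposited annotation. The factor peak lists hold a deposited score and tag signal per peak and fold and p-value columns, all the authors' own, per the file headers, of which peak positions were used here.

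Counts were fitted in R 4.3.3 with edgeR 4.0.16 (quasi-likelihood, robust, TMM scaling, filterByExpr), all 6 libraries in 1 fit, with Benjamini-Hochberg adjustment over all regions or genes. Calls needed an adjusted p under 0.05 and 2-fold. Levels are CPM. DESeq2 1.42.0 was an alternative. Python 3.11.15 with pandas 2.3.3 and numpy 2.4.6 made the summaries. The code was checked on simulated data.

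Genes were named by rank of difference (15 per direction), by number of loci (6), by calls in both directions (6), by region (6) and, within lists, by the size of difference and by role; list members beyond the 4 with the largest differences were chosen after their values were seen. Genes and regions ranked by difference were called ones whose libraries did not overlap between the groups. Their level in the higher group exceeded the median of the calls in that direction, and predicted or unnamed symbols were left out. The members and lists were chosen with earlier results of these data known. Libraries of 1 group differed beyond sampling noise (chi-square per region 4.36 in Kupffer cells, 4.27 in monocytes). Enhancer sequences were not used here. A few genes are not reported here.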

Additional observations from a re-analysis of the deposited data

How the results depend on the processing

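Without a fold minimum 4810 genes were higher and 4427 lower. At 4-fold, 11028 regions and 1186 genes were higher and 7368 regions and 799 genes lower. With 1 region per merged locus 12051 regions were higher and 8233 lower, and with promoter regions only 1793 genes were higher and 1229 lower; fewer features enter both fits. Scaling by total tags gave 3661 lower genes. Leaving out each library gave 17150 to 19561 higher and 10543 to 13895 lower regions, and 2826 to 3157 higher and 2009 to 2451 lower genes; the library left alone in its group was assumed to vary like the others. DESeq2 gave 18412 higher and 12009 lower regions, with 1571 adjusted p-values missing.

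Libraries of the same replicate number showed little shared deviation: deviations from the group means correlated at 0.049 between Kupffer cells and monocytes. With 2 libraries per group this cannot show whether libraries of the same number were prepared together. With the replicate block, 20112 regions were higher and 13961 lower, and 3089 genes were higher and 2377 lower.

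The share of higher regions over 3 kb from a start was 74.1% with DESeq2, 70.2% without a fold minimum, 78.7% at 4-fold, 81.4% per locus and 73.0% to 75.4% across the left-out libraries. For lower regions it was 66.8% by total tags, 65.2% with DESeq2, 57.5% without a fold minimum, 79.2% at 4-fold, 77.1% per locus and 61.6% to 70.3% across the left-out libraries. So the lower share fell under the 65.9% of all regions in some settings, and at 4-fold it exceeded the higher share.

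With a peak in either library the LXR share was 85.4% of higher and 43.7% of lower regions, the SMAD4 share 77.1% and 39.0%, and the RBPJ share 36.8% and 19.4%. With a 100 bp overlap the higher shares were 56.6% for LXR and 44.5% for SMAD4. Over 3 kb from a start the shares were 59.8% of higher, 14.1% of lower and 25.4% of uncalled regions for LXR. For SMAD4 they were 44.1%, 11.4% and 20.2%, and for RBPJ 12.6%, 3.36% and 7.12%. In promoter regions, chosen after seeing the data, they were 57.5% of higher, 40.3% of lower and 58.3% of uncalled regions for LXR, 58.8%, 45.1% and 56.8% for SMAD4, and 16.8%, 13.9% and 18.8% for RBPJ.

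5 genes changed sign as other regions were summed: Rap1gap2 (-2.35 within 20 kb), Ccr2 (-2.28 within 20 kb and -2.21 over promoters), Ctgf (-0.59 within 20 kb), Ppargc1b (-0.97 per locus) and Selplg (0.47 over promoters). Of 158 named genes fitted over promoter regions only, 22 lost their call with no change of sign and 3 gained one. Cdk1 (0.37) and Apoa2 (0.43) were among those without a call there. Leaving out Kupffer cell library 2 ended the calls of Cd63 (-0.95), Clec4g (-0.91), Eef1a1 (0.88), Eng (-1.20), Klf4 (-0.98), Masp1 (-0.89), Mfge8 (-1.31), Notch3 (-2.03), Ptgs2 (-1.84), Smad1 (0.97) and Smad4 (-0.61). Without Kupffer cell library 1, Eng (-1.06) and Ptgs2 (-1.14) were lost. Without monocyte library 1, Ccr2 (0.99), Clec4g (-1.17), Eef1a1 (0.95) and Masp1 (-0.95) were lost, and Apoc2 (1.01) and Cd207 (1.27) were gained. Without monocyte library 2, Csrp1 (0.98), Eng (-1.02), Klf4 (-0.98), Mfge8 (-1.45), Ptgs2 (-1.09) and Smad4 (-0.84) were lost. The higher Runx1 promoter was no longer called without Kupffer cell library 2 (0.82) or monocyte library 1 (0.89). With few monocyte or Kupffer cell tags, the size of the largest differences is limited by depth.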
